A study of Mus musculus with 14 samples.

Results

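The 10 genes examined here encode the core proteins of the perineuronal net and the related proteoglycans of the brain: Acan, Bcan, Ncan, Vcan, Hapln1, Hapln4, Tnr, Tnc, Ptprz1 and Cspg5. They were chosen by gene symbol from a table of 36118 genes, and all 10 were among the 16637 genes that passed the filter on low counts. RNA came from the hippocampus of 14 C57/BL6 mice (C57BL/6N for the knockout line in the study's methods) on postnatal day 15, with 1 library per mouse. Wild-type littermates kept in room air (WT-RA, 4 mice) or in hyperoxia of 85% O2 from postnatal day 1 to day 14 (WT-O2, 4 mice) were compared with GSDMD knockout mice kept in room air (KO-RA, 3 mice) or in the same hyperoxia (KO-O2, 3 mice). The knockout is global and carries a small deletion in Gsdmd, the gene of the pore-forming protein gasdermin D, so every cell of a KO mouse carries it. Where the values of a group are listed one by one, they follow the order GSD398, GSD399, GSD400, GSD401 for WT-RA and GSD404, GSD405, GSD406, GSD408 for WT-O2. The order is GSD489, GSD490, GSD496 for KO-RA and GSD491, GSD494, GSD495 for KO-O2.

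Perineuronal nets are lattices of extracellular matrix that form late in development around certain neurons, above all fast-spiking parvalbumin interneurons and, in the hippocampus, CA2 pyramidal neurons. Their backbone is hyaluronan, to which the lecticans (aggrecan, brevican, neurocan and versican) bind through link proteins of the Hapln family, while tenascins join the far ends of the lecticans. The chondroitin sulfate chains on the lecticans hold growth factors and guidance molecules, and closing of the nets is known to accompany the end of juvenile plasticity.

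The libraries summed to between 27272300 and 28257500 estimated counts. Gsdmd had 41 to 63 counts in the WT libraries and 22 to 42 in the KO libraries. These sums over transcripts do not show whether the deletion is present. For mouse GSD408 the record's title gives hyperoxia and its treatment field gives room air. It was analysed as WT-O2, and none of the calls of the 10 genes changed when it was counted as WT-RA. Markers of neighbouring brain regions differed between the genotypes. The summed level of 10 markers of striatal projection neurons was 412 to 953 CPM (counts of a gene per 1000000 counts of the library) in WT and 163 to 271 in KO libraries, that of 8 thalamic markers 100 to 720 and 101 to 144 CPM, and that of 8 hippocampal projection neuron markers 563 to 945 and 1202 to 1514 CPM. All 8 hippocampal markers were detected in every group. Choroid plexus markers summed to 36.8 CPM in KO-RA mouse GSD489 and 106 CPM in KO-O2 mouse GSD494, compared to 922 to 3397 CPM in the other libraries. The WT mice are numbered GSD398 to GSD408 and the KO mice GSD489 to GSD496, so genotype and number range cannot be told apart.

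Levels were compared between genes only after division by the length of the merged exons in the GENCODE M21 annotation, as CPM per kilobase. On this scale brevican (83.9 CPM per kilobase on average over all libraries) and neurocan (72.9) were the most abundant of the 10. Ptprz1 (36.0), Tnr (32.0) and Cspg5 (28.4) followed, then the link proteins Hapln1 (15.6) and Hapln4 (8.72), and then Tnc (5.28) and Vcan (3.81). Aggrecan was the lowest, at 0.927 CPM per kilobase. Neighbours in this order were not tested against each other. The merged length counts every annotated exon, whether or not it is used here, and the scaling of the deposited counts is not known. The order is therefore approximate. The group means of Bcan were 80.8 to 90.1 CPM per kilobase and overlapped those of Ncan, 66.7 to 83.0, while the mean of Acan lay below that of the other 9 genes in every group.

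**Figure D1:**
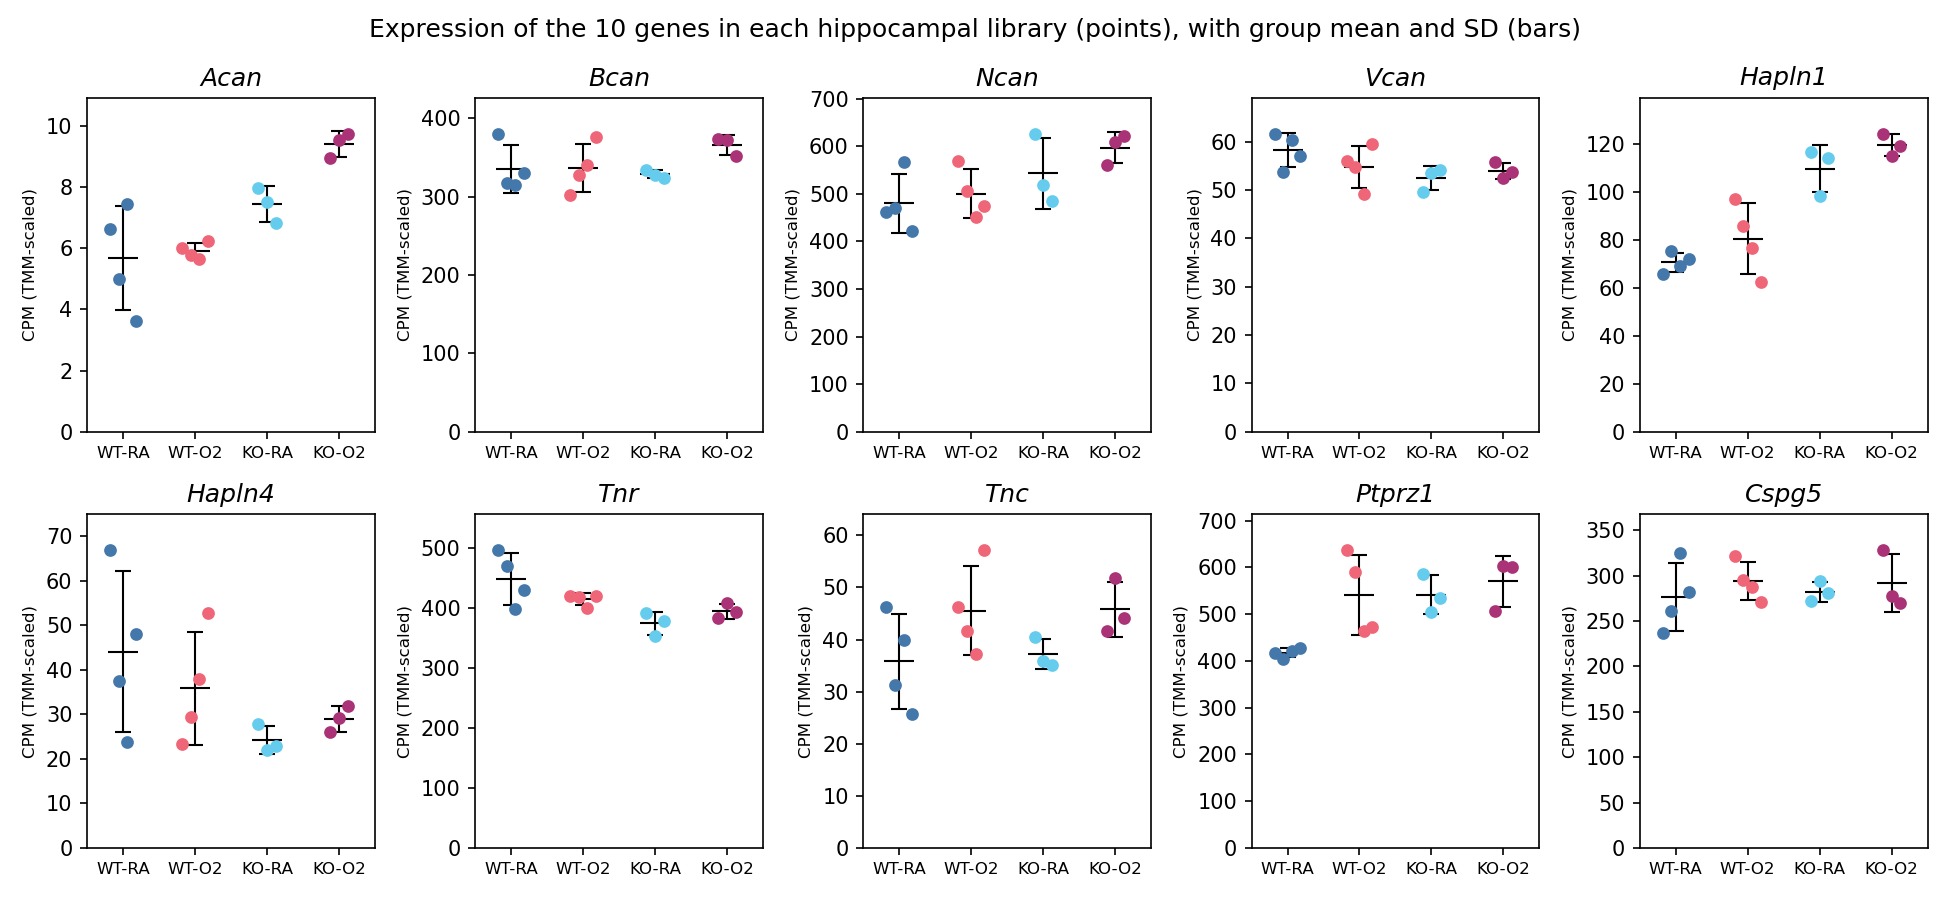
Expression of each of the 10 genes (y axis, TMM-scaled CPM, starting at 0) in the 4 groups (x axis). Points are single libraries and bars give the group mean and SD; the 6 KO points of Hapln1 (98.3 to 124 CPM) all lie above the 8 WT points (62.3 to 97.0 CPM), whereas Hapln4 spreads from 23.4 to 66.9 CPM within WT.

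Genotype was compared first, within each exposure. A gene was called when its absolute log2 fold change was at least 0.32, its p below 0.05 and its q below 0.1. The p came from edgeR's quasi-likelihood F-test and q is its Benjamini-Hochberg adjustment over the 16637 genes. In KO-O2 compared to WT-O2, 2 of the 10 genes were called, Hapln1 and Acan, both higher in KO-O2, against a background of 6.86% of all genes tested. In KO-RA compared to WT-RA, 3 of 10 were called against a background of 10.4%. Hapln1 and Ptprz1 were higher and Hapln4 was lower in KO-RA. An unadjusted p below 0.05 was found for 3 of the 10 genes in hyperoxia, beside 3117 of the 16637 genes tested. In room air it was found for 6 of the 10, beside 3907. The median log2 fold change of the 10 genes was 0.042 under hyperoxia and 0.044 in room air, beside -0.0089 and -0.0067 over all genes tested. The comparisons share no mice, and the values of each are given side by side.

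**Figure D2:**
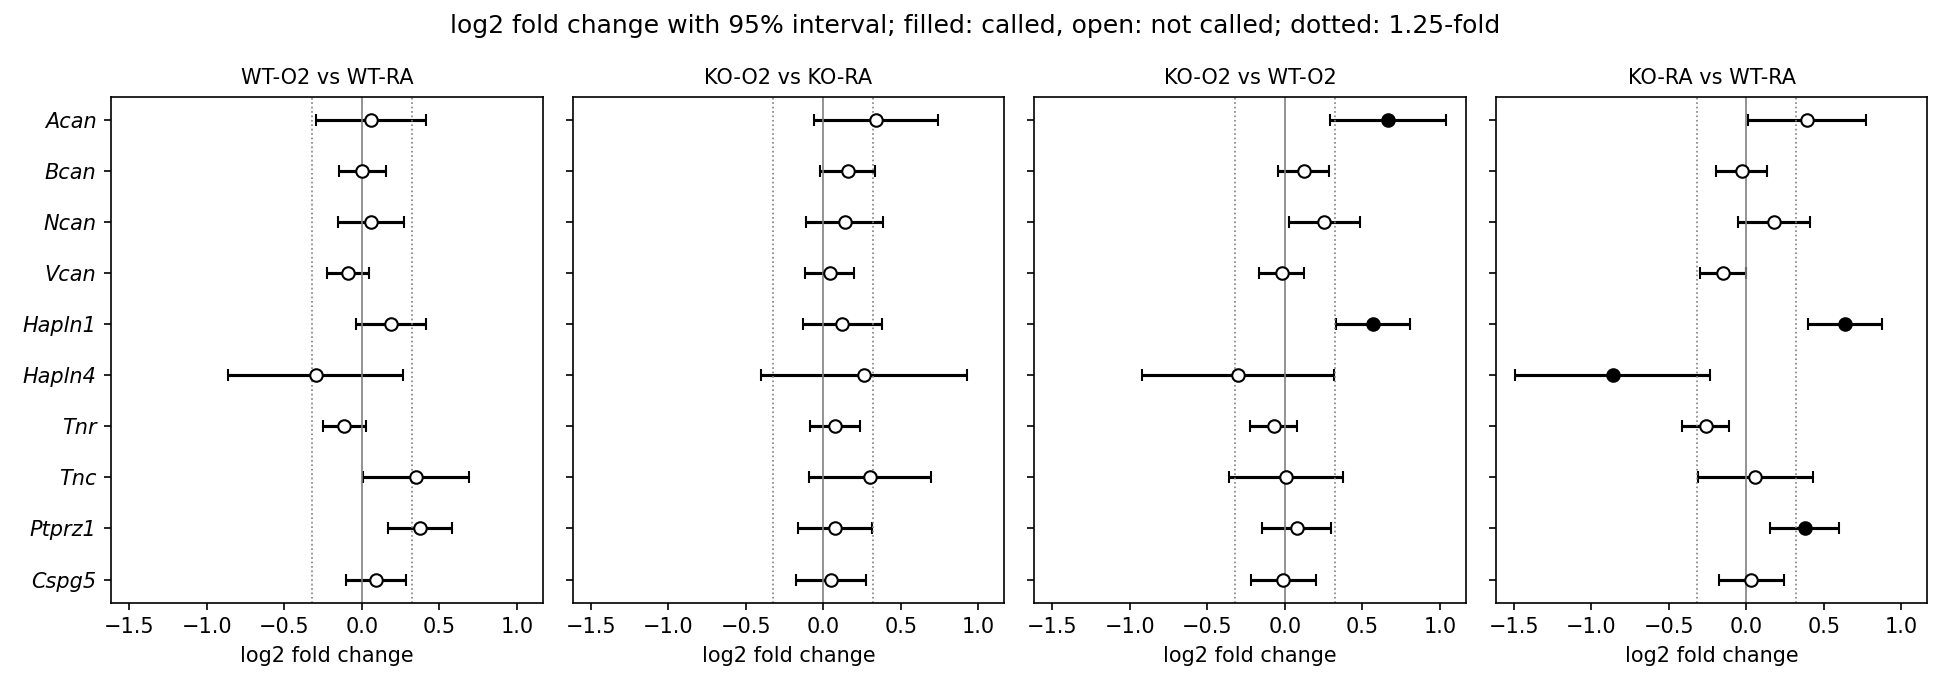
The log2 fold change (x axis) of each of the 10 genes in the 4 comparisons, with its 95% interval as a bar, a filled point where the gene was called and dotted lines at the smallest change that could be called (0.32 up or down). Filled points are Acan (0.67) and Hapln1 (0.57) in KO-O2 vs WT-O2, and Hapln1 (0.64), Ptprz1 (0.375) and Hapln4 (-0.86) in KO-RA vs WT-RA.

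Hapln1 encodes cartilage link protein, which locks lecticans onto hyaluronan and on which the compact form of the net depends. Its level was 65.6, 75.2, 69.1 and 72.1 CPM in the WT-RA libraries and 97.0, 85.8, 76.5 and 62.3 CPM in the WT-O2 libraries. It was 117, 98.3 and 114 CPM in the KO-RA libraries and 124, 115 and 119 CPM in the KO-O2 libraries. Every KO library lay above every WT library, although the lowest KO library and the highest WT library, 98.3 and 97.0 CPM, were close. The share of all genes separated in this way over both exposures was not computed. Within hyperoxia 19% of all genes tested did not overlap between genotypes, and within room air 19.6%. The level rose by 48.4% in KO-O2 compared to WT-O2 (log2 fold change 0.57 ± 0.11 SE, 95% interval 0.33 to 0.81, edgeR q = 0.0075). It rose by 55.4% in KO-RA compared to WT-RA (log2 fold change 0.64 ± 0.11, interval 0.40 to 0.88, edgeR q = 0.0027). Hapln1 was called in all 16 alternative fits of each comparison at these thresholds, with log2 fold changes of 0.46 to 0.67 and 0.59 to 0.71. In the order of group means, WT-RA (70.5 ± 4.07 CPM, SD) and WT-O2 (80.4 ± 14.7) overlapped, and so did KO-RA (110 ± 9.89) and KO-O2 (119 ± 4.64).

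Vcan encodes versican, the lectican that prevails in the young brain matrix and is later joined by aggrecan and brevican. It lies next to Hapln1 on chromosome 13, and each of the other lecticans likewise lies next to a link protein gene: Bcan next to Hapln2 on chromosome 3, Acan next to Hapln3 on chromosome 7 and Ncan next to Hapln4 on chromosome 8, with 0 protein-coding genes between them in the annotation. Vcan ranged over 53.8 to 61.7 CPM in WT-RA and 49.1 to 59.5 CPM in WT-O2, and over 49.7 to 54.2 CPM in KO-RA and 52.5 to 55.8 CPM in KO-O2, so its groups overlapped in every comparison. Its log2 fold change was -0.021 ± 0.069 in KO-O2 vs WT-O2 (edgeR q = 0.92) and -0.15 ± 0.069 in KO-RA vs WT-RA (edgeR q = 0.20). The ratio of Hapln1 to Vcan counts within a library was 1.05 to 1.73 in WT and 1.83 to 2.35 in KO libraries. This ratio was chosen after the values were seen and is given as a description.

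The 300 bases around the start sites of these neighbours are shown with those of Acan and Ptprz1, the other called genes for which a promoter window was at hand (8 of the 10 genes had one; Hapln4 and Cspg5 did not). They are RefSeq sequences of build GRCm38.p6, 5′ to 3′ on the strand of the gene, from 250 bases before to 50 bases after the start. The windows are chr13:89540386-89540685 (plus strand) for Hapln1, chr13:89742463-89742762 (minus) for Vcan, chr7:79052976-79053275 (plus) for Acan and chr6:22875252-22875551 (plus) for Ptprz1. Capitals mark GC boxes, GGGCGG on either strand, which 35.7% of 32851 promoter windows of this length hold.
Hapln1: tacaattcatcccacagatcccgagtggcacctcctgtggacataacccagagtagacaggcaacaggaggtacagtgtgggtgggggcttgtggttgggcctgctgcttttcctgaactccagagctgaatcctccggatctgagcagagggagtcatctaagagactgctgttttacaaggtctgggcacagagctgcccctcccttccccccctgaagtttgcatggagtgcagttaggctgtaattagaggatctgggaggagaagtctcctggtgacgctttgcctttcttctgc
Vcan: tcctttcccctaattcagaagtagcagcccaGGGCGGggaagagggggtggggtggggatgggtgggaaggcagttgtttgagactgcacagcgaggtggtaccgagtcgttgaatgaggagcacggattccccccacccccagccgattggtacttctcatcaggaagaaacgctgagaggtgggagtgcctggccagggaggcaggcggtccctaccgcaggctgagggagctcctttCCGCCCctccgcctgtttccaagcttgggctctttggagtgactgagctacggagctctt
Acan: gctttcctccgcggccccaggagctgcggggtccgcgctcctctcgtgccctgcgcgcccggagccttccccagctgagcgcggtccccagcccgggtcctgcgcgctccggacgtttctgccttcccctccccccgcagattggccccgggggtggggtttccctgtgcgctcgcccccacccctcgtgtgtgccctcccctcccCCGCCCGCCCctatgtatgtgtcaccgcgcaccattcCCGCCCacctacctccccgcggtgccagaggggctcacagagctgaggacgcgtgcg
Ptprz1: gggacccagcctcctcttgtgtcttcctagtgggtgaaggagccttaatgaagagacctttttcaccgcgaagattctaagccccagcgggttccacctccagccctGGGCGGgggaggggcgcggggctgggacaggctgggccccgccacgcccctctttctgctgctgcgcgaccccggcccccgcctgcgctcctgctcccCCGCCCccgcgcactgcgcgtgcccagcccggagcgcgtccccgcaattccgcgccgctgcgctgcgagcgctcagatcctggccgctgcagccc
Acan held 3 GC boxes, 2 of which overlap, Vcan and Ptprz1 held 2 each, and Hapln1 held 0. G and C made up 54.3% of the Hapln1 window, 61.0% of that of Vcan, 74.0% of that of Acan and 71.7% of that of Ptprz1, beside a median of 52.7% over all windows. The hypoxia response core, ACGTG on either strand, is held by 19.6% of all windows and by none of these 4. A match or its absence describes these letters only.

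Acan encodes aggrecan, the lectican that is taken as the defining component of mature nets. Its counts were the lowest of the 10 genes, 101 to 260 per library. In hyperoxia its level was 6.01, 5.77, 5.66 and 6.24 CPM in the WT-O2 libraries and 8.95, 9.54 and 9.75 CPM in the KO-O2 libraries. The groups did not overlap, as for 19% of all genes tested in this comparison. Aggrecan mRNA was higher by 58.9% in KO-O2 (log2 fold change 0.67 ± 0.17, 95% interval 0.29 to 1.04, edgeR q = 0.037). In room air it was 6.62, 5.001, 7.46 and 3.62 CPM in the WT-RA libraries and 7.99, 7.52 and 6.83 CPM in the KO-RA libraries. There the groups overlapped and Acan missed the q threshold (0.39 ± 0.18, edgeR q = 0.20). The call in hyperoxia was kept in 13 of 16 alternative fits and was lost without KO-O2 mouse GSD494 (0.66, edgeR q = 0.10) or GSD495 (0.64, q = 0.13), and without GSD489 and GSD494 together (0.67, q = 0.11). In room air it was called only without WT-RA mouse GSD400 (0.56, q = 0.044).

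Bcan and Ncan, the lecticans of the general brain matrix, were not called in either genotype comparison. Brevican was 302 to 376 CPM in WT-O2 and 352 to 374 in KO-O2 (log2 fold change 0.12 ± 0.077), and 315 to 380 in WT-RA and 324 to 334 in KO-RA (-0.031 ± 0.078). Neurocan was 452 to 569 CPM in WT-O2 and 561 to 621 in KO-O2 (0.26 ± 0.11, edgeR q = 0.21), and 422 to 567 in WT-RA and 485 to 627 in KO-RA (0.18 ± 0.11, edgeR q = 0.36). Both genes overlapped between genotypes in each exposure.

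Hapln4 encodes brain link protein 2, which is known for nets and for synapses of inhibitory neurons, where it binds brevican. It had the widest spread of the 10 genes, with a within-group SD of log2 CPM of 0.45 beside a median of 0.15 over all genes tested. Its level was 66.9, 37.5, 23.9 and 47.9 CPM in the WT-RA libraries and 27.9, 22.04 and 22.8 CPM in the KO-RA libraries. The mean fell by 45.01% in KO-RA, but the lowest WT-RA library lay within the KO-RA range. The log2 fold change was -0.86 ± 0.29 (95% interval -1.49 to -0.23, edgeR q = 0.081). This call was lost in 8 of 16 alternative fits. Without WT-RA mouse GSD398 the log2 fold change was -0.58 (edgeR q = 0.21), and leaving out GSD401, GSD489, GSD490 or GSD496 gave -0.82, -0.97, -0.80 and -0.81, with edgeR q of 0.14, 0.14, 0.21 and 0.22. In hyperoxia Hapln4 was 23.4, 29.4, 37.8 and 52.7 CPM in the WT-O2 libraries and 25.99, 29.3 and 31.8 CPM in the KO-O2 libraries. The KO-O2 values fell inside the WT-O2 range and the gene was not called (-0.30 ± 0.29, edgeR q = 0.65).

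Among the 8 WT libraries the order of Hapln4 was close to that of markers of mature oligodendrocytes, the myelin-forming cells of white matter. The highest and the lowest WT library were GSD398 and GSD404 for both, and no library's rank differed by more than 1 place. The summed choroid plexus markers ordered the 8 WT libraries as closely to Hapln4, with GSD398 highest and no rank differing by more than 1 place. Over the KO libraries the choroid plexus markers ranged from 36.8 to 3397 CPM, where Hapln4 was 22.04 to 31.8 CPM. The oligodendrocyte order did not hold in KO either. GSD489, GSD494 and GSD495 had lower oligodendrocyte sums (3473, 3441 and 3894 CPM) and higher Hapln4 (27.9, 29.3 and 31.8 CPM). GSD490, GSD496 and GSD491 had sums of 5358, 5589 and 6060 CPM and Hapln4 of 22.04, 22.8 and 25.99 CPM. The points of each library share its depth and scaling, so this is a description. The 10 oligodendrocyte markers summed to 8082 to 20211 CPM in WT-RA and 5070 to 13484 CPM in WT-O2, to 3473 to 5589 CPM in KO-RA and to 3441 to 6060 CPM in KO-O2, and no marker was at 0. All 10 were called lower in KO-RA vs WT-RA (median log2 fold change -1.63), and 7 of 10 in KO-O2 vs WT-O2 (median -1.11). In bulk tissue, fewer cells of a type and less RNA per cell cannot be told apart. The part of either set of markers in the Hapln4 and Hapln1 values was not tested.

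**Figure D3:**
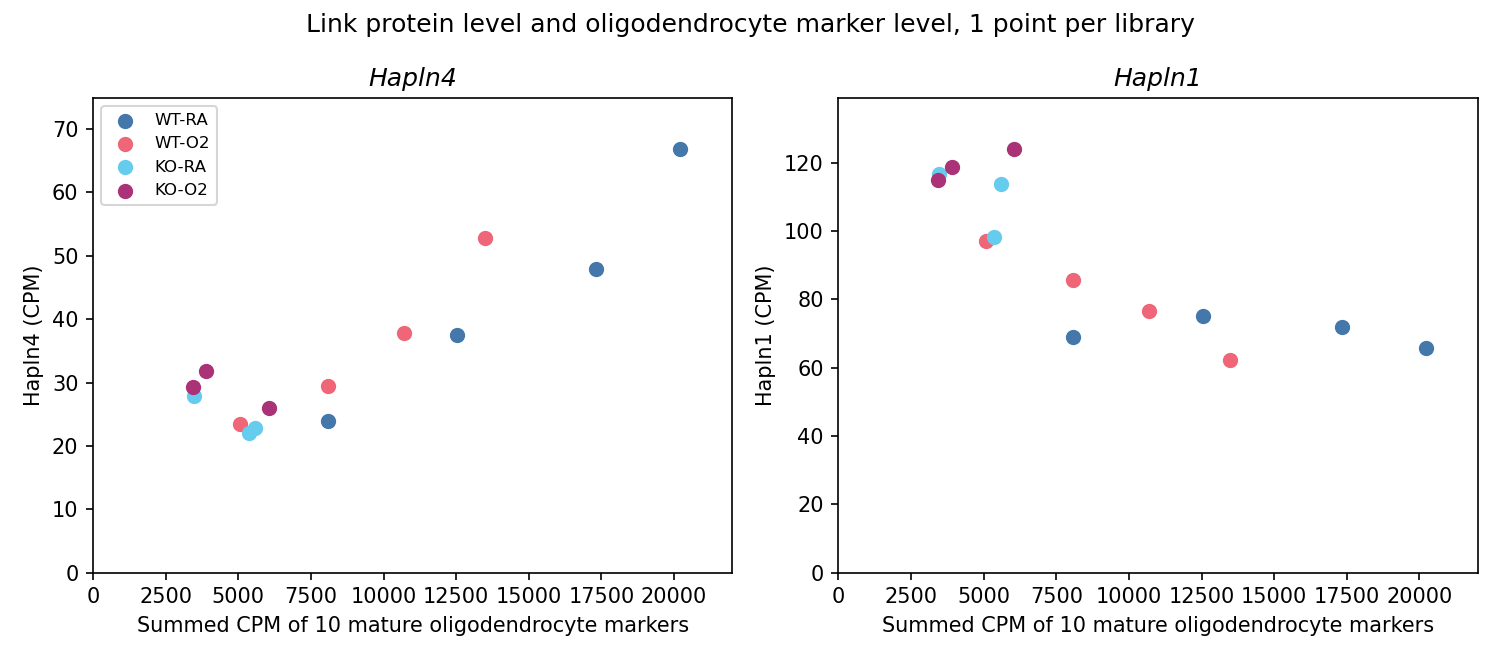
Level of Hapln4 (left) and Hapln1 (right; y axes, CPM) against the summed CPM of 10 mature oligodendrocyte markers (x axes), with 1 point per library and colours for the 4 groups. Hapln4 runs from 23.4 CPM at a sum of 5070 (GSD404) to 66.9 CPM at 20211 (GSD398) among WT libraries, and the 6 KO libraries lie at sums of 3441 to 6060 with 22.04 to 31.8 CPM of Hapln4 and 98.3 to 124 CPM of Hapln1.

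The proportion of both link proteins was compared within libraries, a measure chosen after the values were seen and given as a description. The ratio of Hapln1 to Hapln4 counts was 0.982 to 2.90 in WT-RA and 4.19 to 4.998 in KO-RA, without overlap. It was 1.18 to 4.15 in WT-O2 and 3.73 to 4.78 in KO-O2, where the groups overlapped through GSD404. Of the 2 other link proteins, Hapln2, a link protein of nodes of Ranvier in myelinated axons, fell in KO-RA from 5.19 ± 3.26 to 0.930 ± 0.281 CPM (SD; log2 fold change -2.47 ± 0.59, edgeR q = 0.016). Hapln2 was 3.19 ± 2.03 CPM in WT-O2 and 1.16 ± 0.179 CPM in KO-O2 and was not called there (edgeR q = 0.17). Hapln3 was 1.97 to 3.26 CPM over all libraries and was called in no comparison.

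Tnr encodes tenascin-R, which crosslinks lecticans in the net and is made by oligodendrocytes and by some neurons. Its level was 497, 470, 399 and 431 CPM in the WT-RA libraries and 391, 354 and 378 CPM in the KO-RA libraries. The lowest WT-RA and the highest KO-RA library were 399 and 391 CPM, so the groups did not overlap. The mean of KO-RA differed from that of WT-RA by -16.6% (log2 fold change -0.26 ± 0.070, 95% interval -0.41 to -0.11, edgeR q = 0.029), which met the thresholds on p and q but not the one on fold change. In hyperoxia Tnr was 401 to 421 CPM in WT-O2 and 383 to 408 in KO-O2 and the groups overlapped (-0.073 ± 0.070, edgeR q = 0.65). In KO-RA vs WT-RA, 3 of the 10 genes had groups without overlap (Hapln1, Ptprz1 and Tnr), beside 19.6% of all genes tested, and in KO-O2 vs WT-O2 2 of 10 (Hapln1 and Acan).

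Tnc encodes tenascin-C, a tenascin of the developing brain and of reactive astrocytes. In WT it was 25.6 to 46.2 CPM in room air and 37.2 to 57.2 CPM in hyperoxia, and in KO it was 35.1 to 40.6 CPM in room air and 41.6 to 51.7 CPM in hyperoxia. Its log2 fold change between the genotypes was 0.0082 ± 0.17 in hyperoxia and 0.056 ± 0.17 in room air, and neither was called.

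Ptprz1 encodes a receptor-type tyrosine phosphatase with chondroitin sulfate chains, whose secreted form, phosphacan, binds tenascin-R. It is made by astrocytes and oligodendrocyte precursors. The WT-RA libraries were close together at 416, 404, 422 and 427 CPM. Ptprz1 was 637, 591, 464 and 473 CPM in WT-O2, 586, 504 and 534 CPM in KO-RA and 507, 602 and 601 CPM in KO-O2. WT-O2 and KO-RA each lay above WT-RA without overlap. The groups did not overlap for 5.99% of all genes tested in WT-O2 vs WT-RA and for 19.6% in KO-RA vs WT-RA. In KO-RA compared to WT-RA Ptprz1 rose by 29.7% (log2 fold change 0.375 ± 0.10, 95% interval 0.15 to 0.60, edgeR q = 0.034). It is below the alternative threshold of a 1.5-fold change. The call was also lost without KO-RA mouse GSD489 (0.31, edgeR q = 0.15), also when GSD494 was left out with it (0.32, q = 0.16), and was kept in the other 14 of 16 alternative fits. KO-O2 and WT-O2 overlapped (0.075 ± 0.10, edgeR q = 0.78).

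Cspg5 encodes neuroglycan C, a transmembrane proteoglycan with an EGF-like domain. In WT it was 236 to 325 CPM in room air and 272 to 322 CPM in hyperoxia, and in KO 272 to 294 and 270 to 328 CPM, and its group means spanned the narrowest range of the 10 genes, 0.098 on the log2 scale. The 95% intervals of its log2 fold change between genotypes were -0.22 to 0.20 in hyperoxia and -0.18 to 0.24 in room air.

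Hyperoxia was then compared to room air within each genotype. In WT mice none of the 10 genes was called by edgeR, beside 0.643% of all genes tested. An unadjusted p below 0.05 was found for 2 of them, Ptprz1 and Tnc, beside 2027 of the 16637 genes tested. DESeq2 called 1 of the 10, Ptprz1, and 304 genes in all. The mean of Ptprz1 was 417 ± 9.78 CPM in WT-RA and 541 ± 86.2 CPM in WT-O2 (SD, n = 4 each), 29.7% higher, and its groups did not overlap, as for 5.99% of all genes tested. The log2 fold change was 0.375 ± 0.097 (95% interval 0.17 to 0.58, edgeR q = 0.13, DESeq2 q = 0.016). It was also called without WT-O2 mouse GSD408 (0.44, edgeR q = 0.096). Tnc was 46.2, 31.3, 39.97 and 25.6 CPM in the WT-RA libraries and 46.2, 41.6, 37.2 and 57.2 CPM in the WT-O2 libraries, and these groups overlapped (0.35 ± 0.16, edgeR q = 0.40). The log2 fold change of Hapln1 was 0.19 ± 0.10 and that of Tnr -0.11 ± 0.065, both with intervals that include 0. Over the 10 genes the median was 0.061, beside -0.0058 over all genes tested.

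In KO mice none of the 10 genes was called by edgeR or DESeq2, beside 0.012% of all genes called by edgeR. An unadjusted p below 0.05 was found for 0 of the 10, beside 809 of the 16637 genes tested. All 10 log2 fold changes were above 0, from 0.041 (Vcan) to 0.34 (Acan), with a median of 0.13, whereas 49.4% of all genes tested were above 0 and their median was -0.0020. Each of the 10 intervals included 0. Cspg5 turned negative (-0.045) without KO-O2 mouse GSD491. The groups of Acan, Bcan and Tnc did not overlap, 3 of 10 beside 11.8% of all genes. Acan was 6.83 to 7.99 CPM in KO-RA and 8.95 to 9.75 in KO-O2 (0.34 ± 0.19). Bcan was 324 to 334 CPM in KO-RA and 352 to 374 in KO-O2 (0.16 ± 0.083), and Tnc was 35.1 to 40.6 and 41.6 to 51.7 CPM (0.30 ± 0.19), and edgeR gave each of these q = 0.997. The 10 levels come from the same 6 libraries, so they are not separate observations of the exposure.

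The interaction of genotype and hyperoxia tests whether the response to hyperoxia differed between KO and WT. For the 10 genes 0 were called, as for 0% of all genes tested by edgeR; 673 of the 16637 genes and 0 of the 10 had an unadjusted p below 0.05, and DESeq2 called 0 genes. The difference in log2 fold change ran from -0.30 ± 0.15 for Ptprz1 (95% interval -0.61 to 0.016) to 0.56 ± 0.41 for Hapln4 (-0.32 to 1.43). For Acan it was 0.28 ± 0.25 (-0.26 to 0.81) and for Hapln1 -0.067 ± 0.16 (-0.41 to 0.27), so the call of Acan in hyperoxia alone does not show that genotype acted differently there. KO-O2 and WT-RA differ in both factors and were not compared.

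The other genes of the net were examined in 6 lists of 81 genes in all, of which 79 were tested. In WT mice hyperoxia raised 2 of 79, Adamts9, a metalloprotease (0.55 ± 0.13, edgeR q = 0.089), and Gpc4, a glypican of the cell surface (0.45 ± 0.09, q = 0.064), which is 2.53% of the 79 beside 0.643% of all genes tested. In KO mice 0 were called, beside 0.012% of all genes. Both calls in WT would be lost at a q of 0.05, and both were lost with GSD408 counted as WT-RA (0.38, edgeR q = 0.44 for Adamts9 and 0.43, q = 0.17 for Gpc4). In KO-O2 compared to WT-O2, 2 were higher and 9 lower, 13.9% of the 79 beside the 6.86% of all genes given above. In KO-RA compared to WT-RA, 5 were higher and 9 lower, 17.7% beside 10.4%. With GSD408 counted as WT-RA, 9 of the 11 calls in hyperoxia and 11 of the 14 in room air were kept, and without GSD489 and GSD494 9 of 11 and 8 of 14.

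Of the proteases that cut lecticans, Adamts4 and Adamts15 fell in KO in both exposures. Adamts4 was 79.9 ± 22.1 CPM in WT-RA and 31.4 ± 6.65 CPM in KO-RA (SD; log2 fold change -1.35 ± 0.28, edgeR q = 0.0067), and 56.6 ± 17.7 CPM in WT-O2 and 29.3 ± 9.46 CPM in KO-O2 (-0.95 ± 0.28, q = 0.059). Adamts15 was 13.8 ± 5.38 CPM in WT-RA and 7.39 ± 0.986 in KO-RA (-0.90 ± 0.23, q = 0.024), and 13.9 ± 2.15 in WT-O2 and 6.19 ± 0.579 in KO-O2 (-1.16 ± 0.24, q = 0.0089). Adamts5 fell in KO-O2 (-0.73 ± 0.18, q = 0.028), as did the protease inhibitor Timp2 (-0.36 ± 0.09, q = 0.022), while Adamts9 rose in KO-RA (0.44 ± 0.14, q = 0.061). In all, 4 of 15 proteases and inhibitors were lower in hyperoxia, and 2 were lower and 1 higher in room air. Adamts4 is also made by oligodendrocytes, whose markers moved with genotype as given above, and their part in this value was not tested. The call of Adamts4 in hyperoxia was lost with GSD408 as WT-RA (-0.77, edgeR q = 0.15). It was also lost without GSD489 and GSD494 (-0.85, q = 0.19) and without GSD398 and GSD408 (-0.76, q = 0.103). That of Adamts15 in room air was lost without GSD489 and GSD494 (-0.80, q = 0.14). The call of Adamts9 in KO-RA was lost with GSD408 as WT-RA and without GSD489 and GSD494.

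Of 12 receptors and ligands of the net, 1 was lower in KO-RA, and 2 were lower and 2 higher in KO-O2. Sema3a had the largest difference of these in both exposures. It encodes semaphorin 3A, a secreted guidance protein that binds the chondroitin sulfate of nets. It was 20.1 ± 7.04 CPM in WT-RA and 5.07 ± 1.31 in KO-RA (-1.98 ± 0.27, edgeR q = 0.00055), and 16.8 ± 3.34 in WT-O2 and 4.39 ± 0.177 in KO-O2 (-1.94 ± 0.28, q = 0.0012). In hyperoxia Nptx2, a secreted pentraxin that gathers AMPA receptors at synapses, was higher in KO (0.62 ± 0.14, q = 0.019), as was the Nogo receptor Rtn4r (0.36 ± 0.12, q = 0.09), and Ptprf, a receptor phosphatase of the LAR family, was lower (-0.37 ± 0.06, q = 0.0039). The call of Rtn4r was lost with GSD408 as WT-RA (q = 0.14). It was also lost without GSD489 and GSD494 (q = 0.12) and without GSD398 and GSD408 (q = 0.11).

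Of 20 tested enzymes of chondroitin sulfate synthesis and sulfation, Csgalnact1, which begins the chain, was lower in KO in both exposures (-0.52 ± 0.11, edgeR q = 0.0075 in room air; -0.53 ± 0.11, q = 0.010 in hyperoxia). Chsy3, a chondroitin synthase, was lower in KO-RA (-0.82 ± 0.20, q = 0.020), a call lost without GSD489 and GSD494 (-0.67, q = 0.13), as was that of Gpc2 below. Of 11 genes of hyaluronan synthesis, turnover and binding, Cemip2, a cell-surface hyaluronan-degrading protein, was lower in KO-RA (-0.69 ± 0.15, q = 0.0096), and none was called in hyperoxia. Of 19 other proteoglycan core proteins, 4 were higher and 2 lower in KO-RA, led by Dcn (decorin, 1.47 ± 0.32, q = 0.0096), Gpc2 (0.72 ± 0.23, q = 0.066) and Spock3 (a testican, -0.61 ± 0.10, q = 0.0018). In hyperoxia 2 were lower, Gpc3 (-1.01 ± 0.24, q = 0.022) and Spock3 (-0.72 ± 0.10, q = 0.0012). Dcn is also a marker of fibroblasts and meninges, of whose 6 markers it was the only one called in either exposure.

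**Figure D4:**
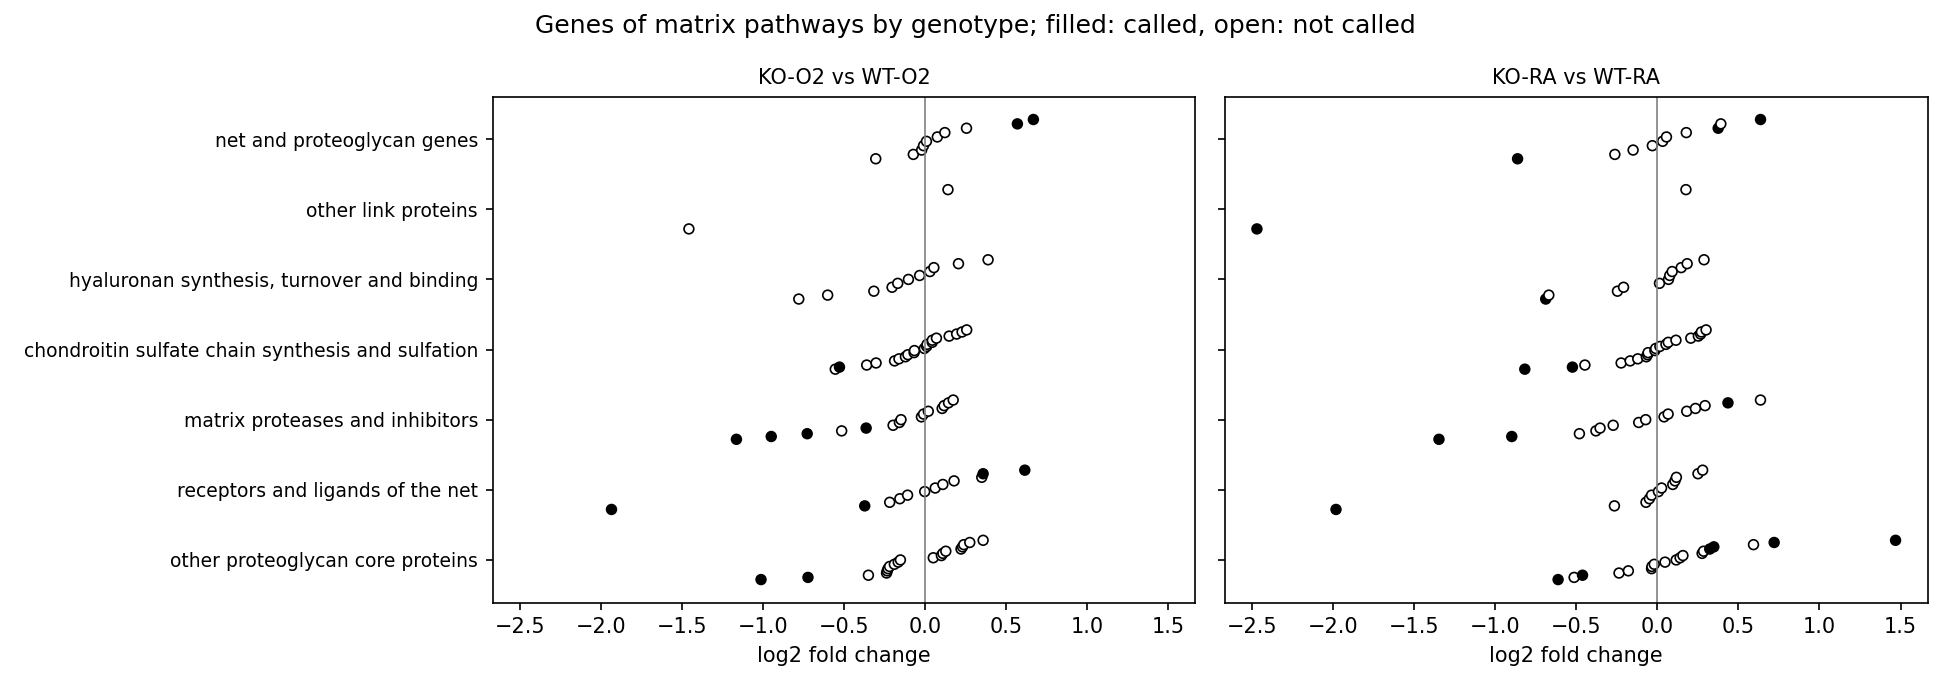
The log2 fold change by genotype (x axis) of each tested gene of the 10 net and proteoglycan genes and of the 6 lists (rows), in hyperoxia (left) and room air (right). Filled points were called and the height of a point within a row is its rank only; the lowest filled points are Sema3a (-1.94) on the left and Hapln2 (-2.47) on the right.

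Markers of the cells that carry or make nets were read beside these values. In the list of 6 parvalbumin interneuron markers, Tac1 and Syt2 were lower in KO in both exposures. Pvalb itself was 21.0 ± 10.1 CPM in WT-RA and 10.4 ± 0.826 in KO-RA (-1.004 ± 0.36, edgeR q = 0.094), and 15.5 ± 6.35 in WT-O2 and 10.1 ± 0.871 in KO-O2 (q = 0.39). In room air 5 of the 6 log2 fold changes were below 0 and 1 above (Lhx6, 25.5 ± 5.90 CPM in WT-RA and 27.6 ± 0.586 in KO-RA), with a median of -0.62. In hyperoxia all 6 were below 0, with a median of -0.44. The summed level of the 6 was 267 to 345 CPM in WT and 227 to 252 in KO libraries, and Tac1 is also in the striatal list. Kcnc1, at a mean of 140 CPM in WT-RA and 114 CPM in KO-RA, made up much of that sum. Of 6 markers of CA2 pyramidal neurons, Rgs14 was higher in KO (0.52 ± 0.10 in room air, edgeR q = 0.0051; 0.71 ± 0.10 in hyperoxia, q = 0.0013) and Pcp4, which the thalamus also expresses, was lower (-1.33 ± 0.19, q = 0.00067; -1.25 ± 0.19, q = 0.0016). Amigo2 was also higher in KO-RA (0.38 ± 0.13, q = 0.070). Of the 6, 4 had positive log2 fold changes in each exposure, with medians of 0.16 in room air and 0.14 in hyperoxia. The summed list was 288 to 493 CPM in WT and 281 to 301 CPM in KO libraries, and Pcp4, at a mean of 247 CPM in WT-RA and 98.5 CPM in KO-RA, made up much of that sum.

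Of 10 astrocyte markers, Slc1a3, a glutamate transporter, was higher in KO in both exposures (0.48 ± 0.07, edgeR q = 0.00069; 0.41 ± 0.07, q = 0.0031), and 1 other in each was called higher (Gfap in room air, Slc1a2 in hyperoxia). Of the 10, 9 had log2 fold changes above 0 and 1 below in room air, with a median of 0.18. In hyperoxia 7 were above and 3 below, with a median of 0.080. The astrocyte sum was 4124 to 4759 CPM in WT and 4797 to 5580 in KO libraries. Slc1a2, at a mean of 2286 CPM in WT-RA and 2624 CPM in KO-RA, made up much of that sum. Of 9 markers of oligodendrocyte precursors, which make Ptprz1, Bcan and Cspg5, 4 were called lower in KO-RA and 0 were called in hyperoxia. In each exposure 2 of the 9 log2 fold changes were above 0 and 7 below, with medians of -0.24 in room air and -0.15 in hyperoxia. Their sum was 645 to 967 CPM in WT and 586 to 685 in KO libraries. Gpr17, at a mean of 379 CPM in WT-RA and 274 CPM in KO-RA, made up much of that sum. None of 8 microglial, 5 endothelial and 5 choroid plexus markers was called between genotypes. All 8 hippocampal projection neuron markers were called higher in KO-RA (median log2 fold change 1.05) and 4 of 8 in KO-O2 (median 0.77). Like Hapln1, their sum was higher in every KO than in every WT library. All 10 striatal markers were called lower in KO in room air (median -1.87) and in hyperoxia (-1.97). So were 5 of 8 thalamic markers in each exposure (-1.22 and -1.55). The part of any of these cells or regions in the levels of the 10 genes, or of the other net genes listed above, was not tested. Left out together, GSD489 and GSD494, the libraries with few choroid plexus markers, cost the calls of Acan, Ptprz1 and Hapln4 but not those of Hapln1. The log2 fold change of Hapln4 in room air was then -0.97 (edgeR q = 0.16), on fewer mice. Without GSD398 and GSD408, the WT libraries with the highest thalamic sums, that of Hapln4 was lost (-0.58, q = 0.11) and the other calls of the 10 genes were kept.

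For the 4 called genes, the profile over the 14 libraries was set beside those of 14457 other genes of at least 1 CPM, by the root mean square difference of centred log2 CPM. Closest to Hapln1 were Fgf13 (0.10), St6galnac5 (0.11) and Sh3bgrl (0.12), where the profile of Hapln1 itself deviated from its mean by 0.34. For Acan they were Pcdhgb1 (0.14), Epha4 (0.15) and Prdm8 (0.16), beside 0.37 for Acan itself. Vamp1 (0.18), D7Ertd443e (0.20) and Kndc1 (0.21) were closest to Hapln4, beside 0.48, and Dcc (0.079), Entpd2 (0.085) and Gabrb1 (0.086) to Ptprz1, beside 0.22. Vamp1 encodes a vesicle protein of fast-spiking neurons and Dcc the netrin receptor. The measure describes likeness over these libraries only.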

How the data were processed

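Hippocampal polyA RNA of 14 mice was sequenced as paired 150 bp reads. The authors deposited estimated counts per gene (expected counts), made with Kallisto on GRCm39 with annotation release 104 and summed with tximport. Tool versions and the scaling in tximport are not given in the sources used here. Between 41% and 43.2% of the values of a library were not whole, so counts were rounded. No column was left unused, and the table holds no coordinates. Reads shared by similar transcripts were split by Kallisto's model, so gene sums carry that uncertainty. Total estimated counts of 27272300 to 28257500 per library leave counting error small for 9 of the 10 genes, and larger for Acan (101 to 260 counts).

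Samples were grouped by title. Genes were filtered with filterByExpr, which left 16637, scaled by TMM and fitted in edgeR 4.0.16 (R 4.3.3) in all 14 libraries with 1 coefficient per group. The comparisons of groups and the interaction were tested by the quasi-likelihood F-test, two-sided, with Benjamini-Hochberg adjustment over all genes tested (q). Genes with an absolute log2 fold change of at least 0.32, p below 0.05 and q below 0.1 were called. SE was the log2 fold change divided by the root of F, and intervals are 95%. CPM are TMM-scaled and log2 CPM used a prior count of 2. P-values judge a group difference against the spread between mice, estimated over all groups. They cannot tell genotype from the mouse number range.

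The 10 genes, the gene lists and the tests were chosen with earlier results of these data known. Named are the 10 genes and up to 3 called genes of at least 1 CPM per list of net genes and comparison. Up to 2 per cell marker list are also named, as are the 3 genes closest in profile to each called gene. Timp2, Rtn4r, Hapln3, Lhx6, Kcnc1 and the ratios were added after values were seen. RefSeq promoters and GENCODE M21 lengths and neighbours are of build GRCm38, not that of the counts, and were matched by symbol.

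Alternatives were DESeq2 1.42.0, its size factors, library size alone, no filter or at least 10 counts in every library, the groups compared only, a fold of 1.5, a q of 0.05, GSD408 as room air and each mouse left out. Leaving out GSD489 with GSD494, or GSD398 with GSD408, the refits of the net gene lists and the count of positive fold changes were added after seeing the data. DESeq2, used by the authors, served here only as an alternative.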

Additional observations from a re-analysis of the deposited data

Results flagged for a closer look

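Of the 10 genes in the 2 groups of 4 mice, 20 sets of values in all, 1 held a library apart from the others of its group. Tnr was 401 CPM in WT-O2 mouse GSD406, the lowest of its group, where the nearest of the other 3 libraries was 418 CPM and the highest 421 CPM. The gap was 0.870 of the range of the group, and chance sets apart about 1 in 20 such groups. The groups of 3 mice were not examined in this way.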

How the results depend on the processing

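The 10 genes were refitted under each alternative, which gave 860 values. At the thresholds used, Hapln1 was called in every alternative fit in both genotype comparisons; at a fold of 1.5 it missed the call in hyperoxia. The 2 calls among the 10 genes in KO-O2 vs WT-O2 became 1 (Acan) with a fold of 1.5, 1 without GSD489 and GSD494, and 1 to 2 without 1 mouse. Of the 3 called in KO-RA vs WT-RA, 1 was left without GSD489 and GSD494, 2 at a fold of 1.5 (without Ptprz1), 2 at a q of 0.05 (without Hapln4), and leaving out 1 mouse gave 1 to 4. In WT-O2 vs WT-RA 0 were called, 1 (Ptprz1) with DESeq2 or without GSD398 and GSD408, and 0 to 1 without 1 mouse. No interaction of the 10 genes was called in any fit.

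Over all genes, the 107 called in WT-O2 vs WT-RA were 304 with DESeq2, 20 with the groups compared only, 46 at a fold of 1.5, 22 at a q of 0.05, 6 with GSD408 as WT-RA, 210 without GSD398 and GSD408, and 13 to 272 without 1 mouse (272 without GSD398, 13 without GSD405). The 2 called in KO-O2 vs KO-RA were 13 with DESeq2, 6 with no filter, 4 with the groups compared only, 0 with GSD408 as WT-RA, 0 without GSD489 and GSD494, 4 without GSD398 and GSD408, and 1 to 4 without 1 mouse. The 1142 of KO-O2 vs WT-O2 were 607 at a fold of 1.5 and 675 (without GSD495) to 1283 without 1 mouse. The 1738 of KO-RA vs WT-RA were 942 at a fold of 1.5, 1059 without GSD489 and GSD494, and 1076 (without GSD489) to 1929 without 1 mouse. Background shares move with these counts.

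The sign turned in 46 values, none of a gene that was called in the comparison concerned, and each started within 0.077 of 0 on the log2 scale. In KO-O2 vs WT-O2, Cspg5 (-0.0099) became 0.0014 with DESeq2, 0.0020 with its size factors, 0.0015 with no filter and 0.031 without GSD489 and GSD494, and ran from -0.10 to 0.044 without 1 mouse. Tnc (0.0082) became -0.014 with library size alone and -0.081 without GSD489 and GSD494 (-0.088 to 0.14 without 1 mouse). Vcan (-0.021) became 0.020 with GSD408 as WT-RA, 0.0063 without GSD489 and GSD494 and 0.027 without GSD398 and GSD408 (-0.063 to 0.027 without 1 mouse). In WT-O2 vs WT-RA, Bcan became -0.088 with GSD408 as WT-RA, and the ranges without 1 mouse were -0.052 to 0.073 for Bcan, -0.10 to 0.22 for Acan and -0.0072 to 0.15 for Ncan. In KO-RA vs WT-RA, Tnc became -0.11 with GSD408 as WT-RA and -0.0022 without GSD489 and GSD494 (-0.072 to 0.21 without 1 mouse). Without GSD398 and GSD408, Bcan became 0.043 and Cspg5 -0.027 there (-0.055 to 0.043 and -0.027 to 0.13 without 1 mouse). In KO-O2 vs KO-RA, Cspg5 ran from -0.045 to 0.10 without 1 mouse. For the interaction, Tnc became 0.24 with GSD408 as WT-RA and Hapln1 0.0043 without GSD489 and GSD494, and without 1 mouse Tnc ran from -0.19 to 0.089, Cspg5 from -0.14 to 0.024, Ncan from -0.010 to 0.19 and Hapln1 from -0.17 to 0.036. The cause was not tested. The mouse numbers are not shared between groups and the labels used here give no litter, so no paired analysis was possible. Whether mice of a group came from the same litter is not known.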
